A study of Mus musculus with 36 samples.

Results

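The genes described are those that code for subunits of the proteasome and for the proteins that assemble or activate it, in cultured mouse cortical neurons. Members were chosen by name alone: gene symbols beginning with Psma, Psmb, Psmc, Psmd or Psme, with 2 pseudogene names left out and a mean of at least 10 normalised reads over the 18 RNA libraries. This rule gave 41 members among 26709 genes in the expression table, all of them among the 16209 genes tested. A further 3 names, Psmb8, Psmb9 and Psmb11, fell below the mean of 10.

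Cortices of CD-1 mouse embryos were dissected at embryonic day 15, the tissue of all embryos was dissociated together, and the neurons were cultured for 7 days. All cultures were silenced with 100 µM AP-5, an NMDA receptor blocker, and 1 µM TTX, a sodium channel blocker. Neurons then received 10 ng/ml BDNF (brain-derived neurotrophic factor, a ligand of the TrkB receptor) or 55 mM KCl, a depolarising stimulus, over 1, 6 or 10 h. Stimulation followed 2 h of silencing, while matching controls stayed silenced for 3, 8 or 12 h in total. RNA-seq and ATAC-seq, which reads out open chromatin, were each made on 18 samples, 2 for each of 9 groups, and the 6 controls served as 1 reference group for every comparison with controls. The comparisons of BDNF and of KCl with controls therefore share their controls. The dissociated tissue holds other cells besides neurons, so in these bulk samples fewer cells of a type and less RNA per cell cannot be told apart.

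The 26S proteasome breaks down proteins that carry chains of ubiquitin. Its 20S core is a barrel of stacked rings, with alpha subunits (Psma genes) in the outer rings, which gate the entrance, and beta subunits (Psmb genes) in the inner rings, of which Psmb5, Psmb6 and Psmb7 hold the peptide-cutting sites. The 19S regulatory particle binds ubiquitin chains, removes them and feeds the unfolded protein into the core: its ATPases (Psmc genes) form the motor, and its non-ATPase subunits (most Psmd genes) include ubiquitin receptors, scaffolds and the deubiquitinase Psmd14. Interferon-induced beta subunits can replace the constitutive ones to form the immunoproteasome, and activators of the Psme family can cap the core in place of the 19S particle. In neurons the proteasome is known for its part in synaptic plasticity and in the turnover of synaptic proteins.

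Of the 41 members, 7 were alpha subunits, 7 constitutive beta subunits, 1 an immunoproteasome beta subunit (Psmb10), 6 ATPases and 11 non-ATPase subunits of the 19S particle, 3 chaperones that assemble the 19S base (Psmd5, Psmd9 and Psmd10) and 5 core activators (Psme1, Psme2, Psme2b, Psme3 and Psme4). Psmc3ip, a cofactor of meiotic recombination named for its binding to Psmc3, is a member by name only. The alpha, constitutive beta, ATPase and non-ATPase genes together are the 31 constitutive subunits of the 26S proteasome. In silenced controls their levels per length lay between 123 normalised reads per kb of exon for Psma2 and 749 for Psma6 (median 248), a ratio of 6.10. Psmb10 stood well below them at 37.8 reads per kb, and the base chaperones lay between 47.7 for Psmd9 and 118 for Psmd10. The constitutive beta genes had a median level of 372 reads per kb. Length here is that of all annotated exons of a gene merged, so part of these differences rests on annotated length. Psma2 had a control mean of 451 reads over 3673 bases and Psma6 of 924 over 1234. Psmd9 had 346 reads over 7248 bases and Psmd10 had 174 over 1469.

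Promoter sequences show which short motifs stand near the start sites of members. RefSeq promoters of the GRCm38.p6 build, from 250 bases before to 50 after the start, were found for 35 of the 41 members (not for Psmb1, Psmb2, Psmb7, Psmc3, Psmd3 and Psmd7) and for 27025 genes in all, and both strands were searched. A gene counted as a match if any of its RefSeq promoters held the motif, so genes with several starts had more chances. The 27025 genes were not limited to expressed ones. The ETS core CCGGAAG, bound by ETS family factors, occurred in promoters of 13 of the 35 members (37.1%), against 9.93% of all genes. The antioxidant response element core TGACNNNGC, which Nfe2l1 and Nfe2l2 bind with small Maf partners, occurred in 6 of 35 (17.1%), against 14.0% of all genes. The CCAAT box stood in promoters of 37.1% of these members against 41.1% of all genes, the AP-1 site TGANTCA in 5.71% against 8.97%, and the CRE TGACGTCA in 0 of 35 against 2.03%. Of 51 matches in members, 2 pairs of different motifs shared bases. A match is a run of letters and not a measured binding site.

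Windows upstream of the RefSeq start are shown for members whose RNA results are given in full or discussed below, with the motif in capitals, read along the gene's own strand. The first set holds the antioxidant response element core, in Psmb5 (chr14:54618014-54618062, minus strand) and Psmb6 (chr11:70525328-70525356, plus strand), which code for cutting subunits of the core.
Psmb5: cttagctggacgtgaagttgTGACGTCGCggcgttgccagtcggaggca
Psmb6: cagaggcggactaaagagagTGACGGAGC
The second set holds the ETS core or its reverse complement, in Psmc2 (chr5:21785171-21785217, plus strand), Psmd6 (chr14:14120964-14121010, minus strand) and Psme4 (chr11:30771702-30771748, plus strand), which code for an ATPase, a 19S scaffold subunit and an activator.
Psmc2: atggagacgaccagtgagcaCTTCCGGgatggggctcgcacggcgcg
Psmd6: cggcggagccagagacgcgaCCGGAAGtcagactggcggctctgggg
Psme4: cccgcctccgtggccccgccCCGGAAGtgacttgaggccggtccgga

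RNA libraries held 8.51 to 36.7 M reads and ATAC libraries 1.24 to 6.24 M reads in peaks. Neuronal markers (Tubb3, Map2, Rbfox3, Snap25, Syt1, Slc17a7 and Neurod6) were high in every library, with a summed level of 47903 to 53229 in controls and 43432 to 54076 over the stimulated groups. This sum is mostly Map2 and Tubb3 and hides single markers that differed in both directions. Tubb3 had a mean of 15792 in controls and 13850 over all 18 libraries, and Snap25 of 2137 and 2627. Markers of other cells were present too. The 4 astrocyte markers summed to 8835 to 11817 in controls, 8663 to 9082 with BDNF at 6 and 10 h and 7024 to 8300 with KCl at these times, and 4 of 4 were lower after 6 h of BDNF and after 6 and 10 h of KCl (2 of 4 after 10 h of BDNF). The dividing-cell markers Mki67 and Top2a summed to 3352 to 5730 in controls, 2908 to 3188 with BDNF at 6 and 10 h, and 2287 to 2483 with KCl at these times, and 2 of 2 were lower in each of the 4 late comparisons. At 1 h, 0 of 4 astrocyte and 0 of 2 dividing-cell markers were called with either stimulus, but other sets moved. The interneuron markers Gad1, Gad2 and Slc32a1 summed to 4593 to 5971 in controls, 8519 to 8756 at 1 h of BDNF and 6093 to 9808 over the other stimulated libraries, and 3 of 3 were higher in each comparison except 1 h of KCl (2 of 3). The 5 oligodendrocyte-lineage markers summed to 5829 to 6232 in controls, 4388 to 4924 at 1 h of KCl (2 of 5 lower, 0 higher) and 6483 to 7194 at 6 and 10 h of KCl. Microglial and leukocyte markers summed to only 90.0 to 121 in controls, and the 3 endothelial and mural markers to 157 to 217. Of these, Cldn5 lay between 0 and 0.979 normalised reads in controls, Pecam1 between 7.68 and 12.7 and Pdgfrb between 146 and 207. The part of these cells in the results below was not tested.

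No member differed detectably with time in silenced culture. Between controls of 6 h and 1 h, and between 10 h and 1 h, 0 of 41 members were called (limma adjusted p below 0.1) and 0 had an unadjusted p below 0.05 by limma or by edgeR. Across all genes 0% were called in both comparisons, with 164 and 181 genes at an unadjusted limma p below 0.05 and 233 and 197 by edgeR. Median differences over the members were -0.05 and -0.02. Here and throughout, differences in RNA are log2 ratios of normalised read counts with 1 added, which understates changes of low genes.

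The first question was whether BDNF changes proteasome RNA. With BDNF most constitutive subunits of the core and of the 19S particle rose. At 1 h, 25 of 41 members were higher and 1, Psmd10, lower than controls (limma, Benjamini-Hochberg adjusted p below 0.1), against 21.3% of all genes tested higher and 40.4% called in either direction. By edgeR and by DESeq2, 18 members were higher and 1 lower at this time. At 6 h, 30 were higher and 0 lower, with 22.1% of all genes higher and 21.1% lower. At 10 h, 34 were higher and 0 lower, with 21.1% higher and 19.5% lower among all genes. No member fell at an unadjusted p below 0.05 at 6 or 10 h by limma, edgeR or DESeq2.

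Among the 31 constitutive subunits, 23, 28 and 30 were higher than controls at 1, 6 and 10 h of BDNF and 0 were lower. Their median log2 difference was 0.22, 0.35 and 0.40 at these times, the last equal to a 1.32-fold rise, while the median over all genes was 0.0009, -0.0029 and -0.0066. The change was visible in single libraries: the median of the 31 subunits lay at 0.24 and 0.17 above the control mean in the BDNF libraries A and B of 1 h, at 0.34 and 0.37 at 6 h and at 0.35 and 0.49 at 10 h. In the 6 controls the same median ran from -0.05 to 0.08, so the BDNF libraries did not overlap the controls. The single constitutive subunit not called at 10 h was Psmd11, a scaffold of the 19S lid, at a log2 difference of 0.05. The 1 h count depended on 1 library and on the controls: without BDNF 1 h library A it was 11 in place of 26, and against the 2 controls of 1 h alone it was 13.

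**Figure D1:**
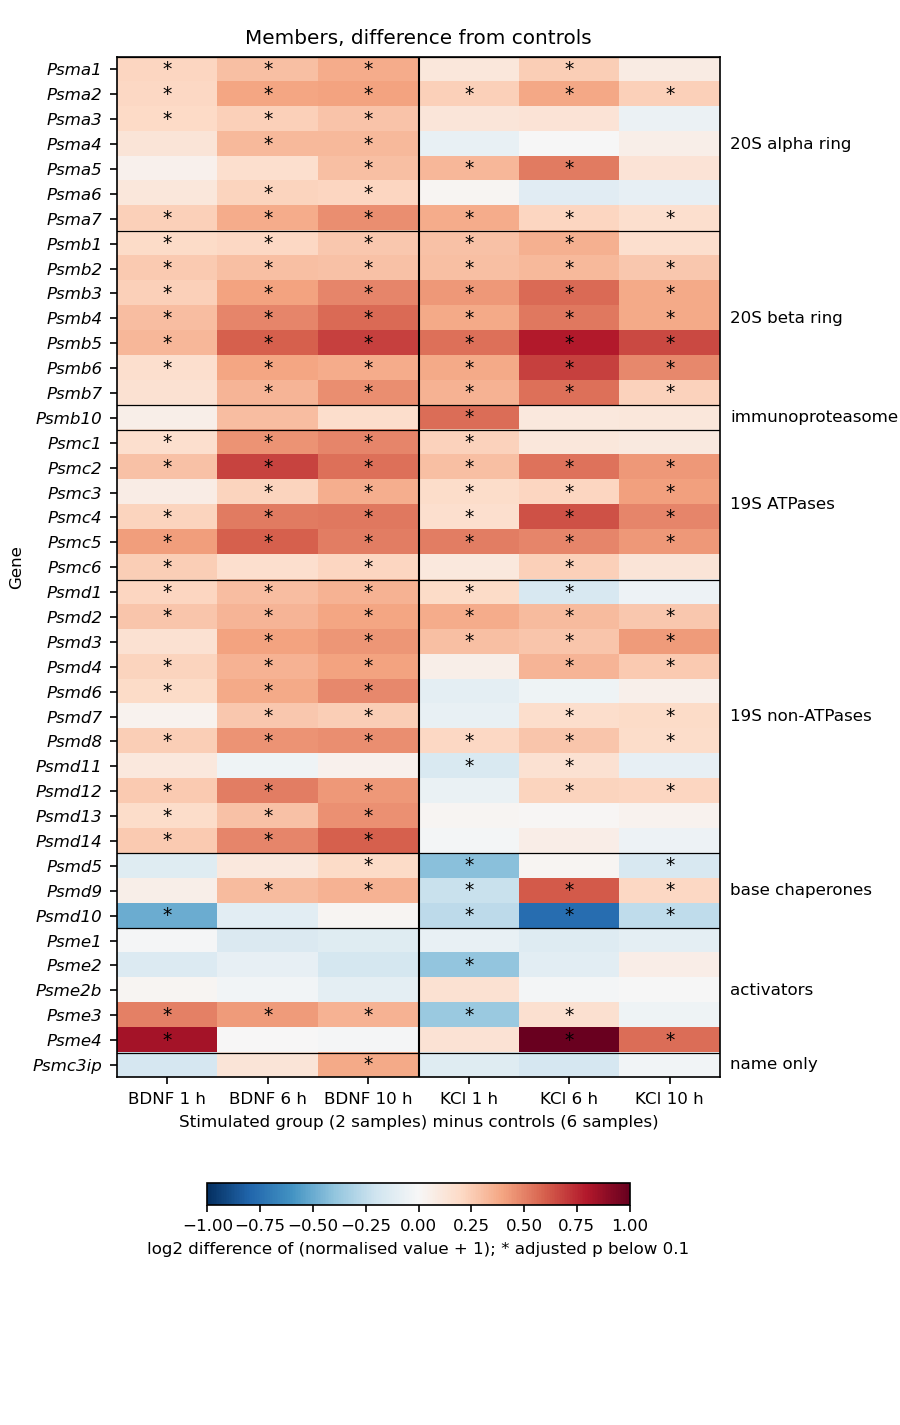
Log2 difference from the 6 controls for each of the 41 members (rows, grouped by role) in each stimulated group (columns, 2 libraries each), as a colour scale; asterisks mark an adjusted p below 0.1. The BDNF columns are red over almost all core and 19S rows, with 34 members higher at 10 h, whereas the KCl columns hold red beta-ring and ATPase rows beside pale or blue rows for several 19S non-ATPase and alpha genes.

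KCl raised many of the constitutive subunits, and few members were lower, at smaller shares than among all genes. At 1 h of KCl, 20 of 41 members were higher and 6 lower than controls, against 26.5% and 28.2% of all genes. At 6 h, 26 were higher and 2 lower, against 33.4% and 33.1% of all genes. At 10 h, 20 were higher and 2 lower, against 29.0% and 28.2%. Of the 31 constitutive subunits, 19, 23 and 18 were higher at 1, 6 and 10 h, Psmd11 was lower at 1 h and Psmd1 at 6 h. Their median log2 difference was 0.20, 0.27 and 0.19. The median of the 31 subunits was 0.27 and 0.19 in the KCl libraries A and B of 1 h, 0.19 and 0.32 at 6 h, then 0.21 and 0.23 at 10 h, above the range of the controls in each library.

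The beta ring, which holds the cutting sites, rose with both stimuli. With BDNF 6, 7 and 7 of its 7 genes were higher than controls at 1, 6 and 10 h, with median log2 differences of 0.24, 0.39 and 0.47. With KCl 7, 7 and 6 of 7 were higher, with medians of 0.38, 0.55 and 0.38. Psmb7 at 1 h of BDNF (0.16) and Psmb1 at 10 h of KCl (0.17) were the exceptions.

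Psmb5, which codes for the subunit with the chymotrypsin-like site and is the target of proteasome inhibitors such as bortezomib, had one of the 2 largest rises in 5 of the 6 comparisons with controls (ENSMUSG00000022193, mm10 chr14:54614119-54618022, minus strand, 3 exons). Its controls ran from 333 to 432 (median 360), with a mean of 371 ± 43.1 normalised reads (SD, n = 6). BDNF gave values of 467 and 463 at 1 h, 566 and 551 at 6 h, then 552 and 636 at 10 h. KCl gave values of 511 and 576 at 1 h, 651 and 630 at 6 h, then 604 and 567 at 10 h. Every stimulated library was above the highest control. The log2 differences with BDNF were 0.33, 0.59 and 0.68 (SE 0.10 each, adjusted p by limma 0.011, 4.9e-05 and 1.3e-05), and those with KCl were 0.55, 0.79 and 0.66 (SE 0.10 each, adjusted p 5.6e-05, 3.7e-07 and 7.1e-06). Part of its exon sequence (12.1%) also lies in the annotated microRNA gene Mir686, so a few of its reads could be counted for either.

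The other catalytic genes rose as well in most comparisons. Psmb6, with the caspase-like site, was 0.16, 0.39 and 0.37 above controls with BDNF and 0.38, 0.69 and 0.48 with KCl, all called. Psmb7, with the trypsin-like site, was 0.16 (not called), 0.34 and 0.47 with BDNF and 0.35, 0.55 and 0.23 with KCl. Among the non-catalytic beta genes, Psmb3 rose by 0.24 to 0.49 with BDNF and 0.38 to 0.57 with KCl, Psmb1 was 0.19 to 0.27 above controls with BDNF and 0.17 to 0.35 with KCl (not called at 10 h), Psmb4 rose by 0.31 to 0.57 with BDNF and 0.38 to 0.53 with KCl, and Psmb2 rose by 0.26 to 0.32 in the 6 comparisons. Of the exon sequence of Psmb7, 11.8% is shared with Nek6.

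Alpha ring genes rose with BDNF, while with KCl some rose and others did not pass the test. With BDNF 4, 6 and 7 of its 7 genes were higher at 1, 6 and 10 h (medians 0.20, 0.30 and 0.32), against 21.3%, 22.1% and 21.1% of all genes. With KCl 3, 4 and 2 of 7 were higher (medians 0.12, 0.21 and 0.08), against 26.5%, 33.4% and 29.0% of all genes. At 10 h of KCl the share of alpha genes was thus near that of all genes. Psma2, Psma5 and Psma7 were called with KCl at 1 and 6 h (Psma5 at 0.33 and 0.52), Psma1 was called at 6 h only (0.25), and Psma3, Psma4 and Psma6 were not called with KCl and lay between -0.11 and 0.14.

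The ATPase motor of the 19S base rose with both stimuli. With BDNF 5, 5 and 6 of 6 genes were higher (medians 0.24, 0.48 and 0.50), and with KCl 5, 5 and 4 of 6 (medians 0.21, 0.36 and 0.42). Psmc2 had the largest rise of any member at 6 h of BDNF (ENSMUSG00000028932, mm10 chr5:21785283-21803787, plus strand). Its controls ran from 560 to 675 (median 618), and BDNF gave 753 and 764 at 1 h, 947 and 1037 at 6 h, then 859 and 959 at 10 h. KCl gave values of 782 and 745, 839 and 972, and 812 and 864 at the 3 times. All 12 stimulated libraries were above the highest control. The log2 difference at 6 h of BDNF was 0.68 (SE 0.08, limma adjusted p 4.6e-07), equal to 1.60-fold, and that of 6 h against 1 h of BDNF was 0.39 (SE 0.09, adjusted p 0.0040). Psmc5 was called in the 6 comparisons at 0.42 to 0.59 and Psmc4 at 0.17 to 0.64, while Psmc3 was 0.07 at 1 h of BDNF (not called) and 0.19 to 0.41 in the others. Psmc6 was called at 1 and 10 h of BDNF (0.24 and 0.21) and at 6 h of KCl (0.24). Psmc1 was 0.45 and 0.49 above controls with BDNF at 6 and 10 h (called) and 0.11 and 0.10 with KCl (not called), with BDNF minus KCl at 0.33 and 0.39, both called.

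**Figure D2:**
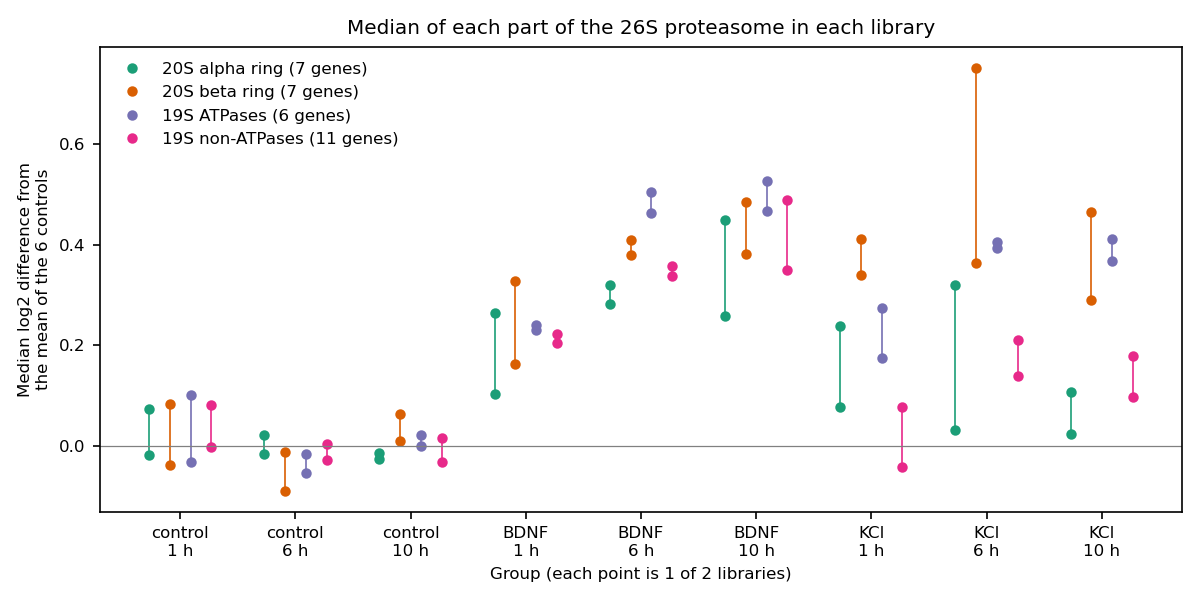
Median log2 difference from the control mean over the genes of each part of the 26S proteasome, for each of the 18 libraries (2 points a group, joined by a line). BDNF libraries lie above the controls for all 4 parts, while in KCl libraries the beta ring (0.29 to 0.75) stands above the 19S non-ATPase subunits (-0.04 to 0.21).

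The 19S non-ATPase subunits rose with BDNF and were mixed with KCl. With BDNF 8, 10 and 10 of 11 genes were higher (medians 0.22, 0.35 and 0.43). With KCl 4, 7 and 6 of 11 were higher (medians 0.02, 0.17 and 0.19), with Psmd11 lower at 1 h (-0.15) and Psmd1 lower at 6 h (-0.16). Among all genes 26.5%, 33.4% and 29.0% were higher with KCl at these times. Psmd2 and Psmd8 rose in every comparison, Psmd2 by 0.28 to 0.40 with BDNF and 0.27 to 0.37 with KCl. The ubiquitin receptor Psmd4 was 0.22, 0.35 and 0.40 above controls with BDNF, all called, and 0.06 (not called), 0.34 and 0.26 with KCl. Psmd12 was 0.26, 0.51 and 0.43 with BDNF and -0.07 (not called), 0.22 and 0.21 with KCl. Psmd3 and Psmd7, both scaffolds of the lid, were not called at 1 h of BDNF (0.15 and 0.03) and were 0.40 and 0.27 at 6 h and 0.44 and 0.25 at 10 h. With KCl Psmd3 was 0.30, 0.27 and 0.43, all called, and Psmd7 -0.08 (not called), 0.17 and 0.19.

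Psmd14, the deubiquitinase that clips ubiquitin chains from the substrate before it enters the core, had one of the 2 largest rises at 10 h of BDNF and did not pass the test with KCl (ENSMUSG00000026914, mm10 chr2:61711694-61800376, plus strand). Its controls ran from 554 to 635 (median 625). BDNF gave values of 765 and 701 at 1 h, 845 and 866 at 6 h, then 868 and 985 at 10 h. KCl gave values of 646 and 557 at 1 h, 591 and 691 at 6 h, then 571 and 609 at 10 h. All BDNF libraries were above the highest control, and the KCl libraries overlapped the controls. The difference at 10 h of BDNF was 0.60 (SE 0.08, limma adjusted p 7.8e-06), and with KCl the differences were -0.02, 0.07 and -0.05 (SE 0.08 each, adjusted p 0.84, 0.48 and 0.65). BDNF minus KCl was 0.29, 0.42 and 0.65 (SE 0.10 each, adjusted p 0.028, 0.0013 and 2.4e-05), the last being the largest difference in favour of BDNF at 10 h, at 1.57-fold.

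The lid subunits Psmd6 and Psmd13 had similar values, unlike Psmd3, Psmd7, Psmd8 and Psmd12, which were called higher at 6 and 10 h of KCl. Psmd6 was 0.19, 0.38 and 0.48 above controls with BDNF, all called, and -0.10, -0.04 and 0.05 with KCl, none called, with BDNF minus KCl at 0.29, 0.42 and 0.43, all called. Psmd13 was 0.19, 0.29 and 0.46 with BDNF and 0.02, 0.01 and 0.03 with KCl, and 10.1% of its exon sequence is shared with Sirt3. Psmd1, the largest subunit of the base, was 1154 to 1233 in the controls (median 1207), 1381 and 1404 with BDNF at 1 h, 1509 and 1466 at 6 h, then 1528 and 1522 at 10 h. KCl gave values of 1345 and 1401 at 1 h, 1123 and 1027 at 6 h, then 1175 and 1142 at 10 h. It was thus above all controls at 1 h of KCl (0.19, adjusted p 0.0067) and below them at 6 h (-0.16, SE 0.06, adjusted p 0.019), and the change from 1 to 6 h of KCl was -0.35 (SE 0.07, adjusted p 1.9e-04). The fall below controls was not called without KCl 6 h library B (-0.09).

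Both stimuli were also compared directly at the same time. At 1 h, 9 of 41 members were higher with BDNF than with KCl and 2 lower, against 24.6% and 18.2% of all genes, and with TMM scaling the split was 7 and 5. At 6 h, 11 were higher and 6 lower, against 29.6% and 27.8%. At 10 h, 16 were higher and 1 lower, against 23.1% and 21.8%. By role, 5 of 7 alpha genes, 1 of 7 beta genes, 1 of 6 ATPases and 6 of 11 non-ATPase genes were higher with BDNF at 10 h. At 6 h, 6 of 11 non-ATPase genes were higher and 1 lower with BDNF, while the 7 beta genes lay between -0.29 and -0.02, with Psmb6 (-0.29) and Psmb7 (-0.21) called lower. Counts fell without single libraries: at 1 h from 11 to 7 without either BDNF library or KCl library B, and at 10 h from 17 to 10 without BDNF library B.

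**Figure D3:**
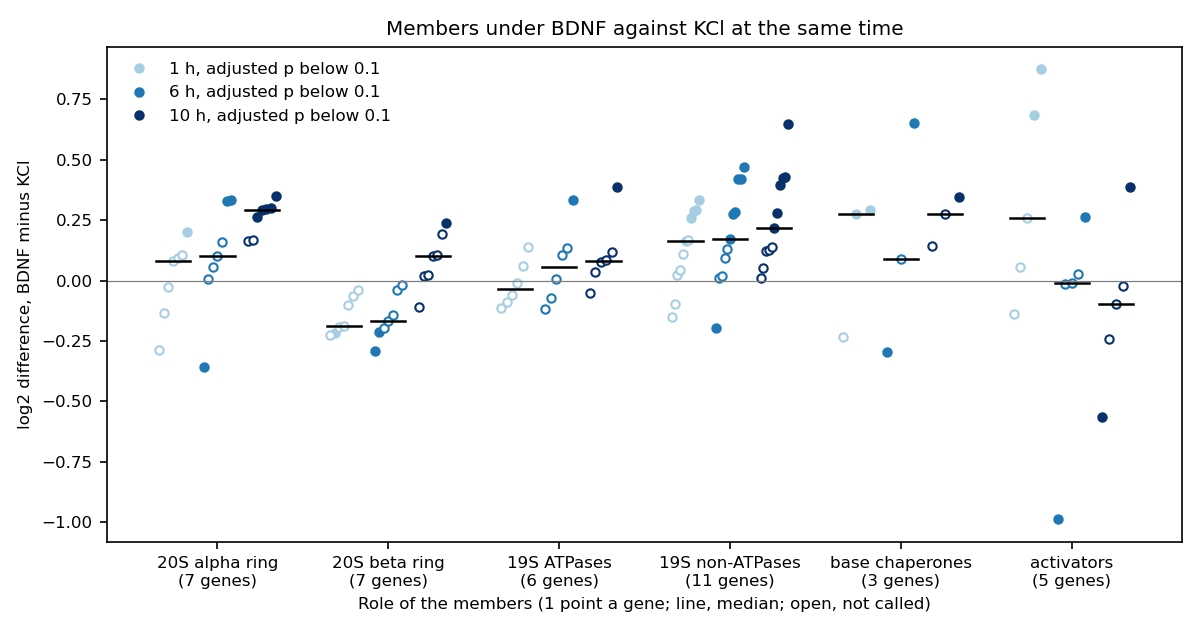
Log2 difference of BDNF minus KCl at 1, 6 and 10 h (shades of blue) for the members of 6 role classes, 1 point a gene, filled where the adjusted p was below 0.1, with the median as a line. Alpha and 19S non-ATPase genes lie mostly above 0 at 10 h, beta genes lie below 0 at 1 and 6 h, and the activators spread from -0.99 to 0.87.

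The activators that cap the core differed from one another. Psme4 codes for PA200, a nuclear activator linked to the breakdown of acetylated histones (ENSMUSG00000040850, mm10 chr11:30771726-30880361, plus strand, 50 exon blocks). It was 671 to 789 in the controls (median 764). BDNF gave values of 1408 and 1271 at 1 h, 795 and 709 at 6 h, then 761 and 733 at 10 h. With KCl it was 878 and 787 at 1 h, 1440 and 1543 at 6 h, then 996 and 1224 at 10 h. BDNF thus gave a peak at 1 h that was back among the controls at 6 h, and KCl gave its highest values at 6 h.

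The early BDNF rise of Psme4 was 0.83 (SE 0.08, limma adjusted p 4.6e-08), or 1.78-fold, and the late differences were 0.00 and -0.01 (SE 0.08 each, adjusted p 1.00 and 0.95). With KCl the difference was 0.15 at 1 h (SE 0.08, adjusted p 0.15), 0.99 at 6 h (adjusted p 1.2e-09), or 1.98-fold, and 0.56 at 10 h (adjusted p 8.2e-06). The order of both stimuli turned over time: BDNF minus KCl was 0.69 at 1 h (SE 0.10, adjusted p 1.1e-05), -0.99 at 6 h (adjusted p 4.9e-08) and -0.56 at 10 h (adjusted p 1.2e-04). The change between 1 and 6 h was -0.83 with BDNF (adjusted p 1.8e-06) and 0.84 with KCl (adjusted p 4.4e-07). No other member differed from the controls by as much as Psme4 at 1 h of BDNF or at 6 h of KCl.

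Psme3 codes for PA28 gamma, a nuclear activator that promotes breakdown of proteins without ubiquitin (ENSMUSG00000078652, mm10 chr11:101316213-101323537, plus strand). It was 1099 to 1179 in the controls (median 1117). BDNF gave values of 1624 and 1579 at 1 h, 1583 and 1456 at 6 h, then 1408 and 1464 at 10 h. With KCl it was 910 and 838 at 1 h, 1198 and 1338 at 6 h, then 1096 and 1097 at 10 h. BDNF libraries were above all controls at each time, and KCl libraries were below all controls at 1 h. Differences were 0.50, 0.42 and 0.34 with BDNF (SE 0.06 each, limma adjusted p 1.5e-06, 1.5e-05 and 2.2e-04) and -0.37, 0.16 and -0.04 with KCl (adjusted p 3.8e-05, 0.028 and 0.58), the second of which was not called without KCl 6 h library B (0.08). BDNF minus KCl at 1 h was 0.87 (SE 0.08, adjusted p 7.9e-09), the largest such difference among members at that time, at 1.83-fold.

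Psme1 and Psme2 code for PA28 alpha and beta, which form the interferon-inducible activator, and both genes lie close together on chromosome 14. Psme1 was 176 to 242 in the controls (median 206) and 177 to 234 over all stimulated libraries, and was called in 0 of 6 comparisons with controls (-0.15 to -0.02). Psme2 was 81.9 to 99.2 in the controls (median 87.3). It was 76.0 and 87.0, 93.7 and 76.9, and 78.0 and 80.2 with BDNF, and 71.6 and 64.2, 96.4 and 71.8, and 91.7 and 95.8 with KCl at the 3 times. Both KCl libraries of 1 h lay below all controls (-0.40, SE 0.14, limma adjusted p 0.023), a call that was lost without library B (-0.32, adjusted p 0.18), and both BDNF libraries of 10 h lay just below the lowest control without a call (-0.18, adjusted p 0.35). Psme2b, a gene of 1 exon on chromosome 11 whose transcript is 99.4% identical to a Psme2 transcript over 794 aligned bases, was 375 to 473 in the controls and 375 to 494 in stimulated libraries and was not called (-0.10 to 0.15). Reads of this pair may have been split between them, so both levels are uncertain.

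**Figure D4:**
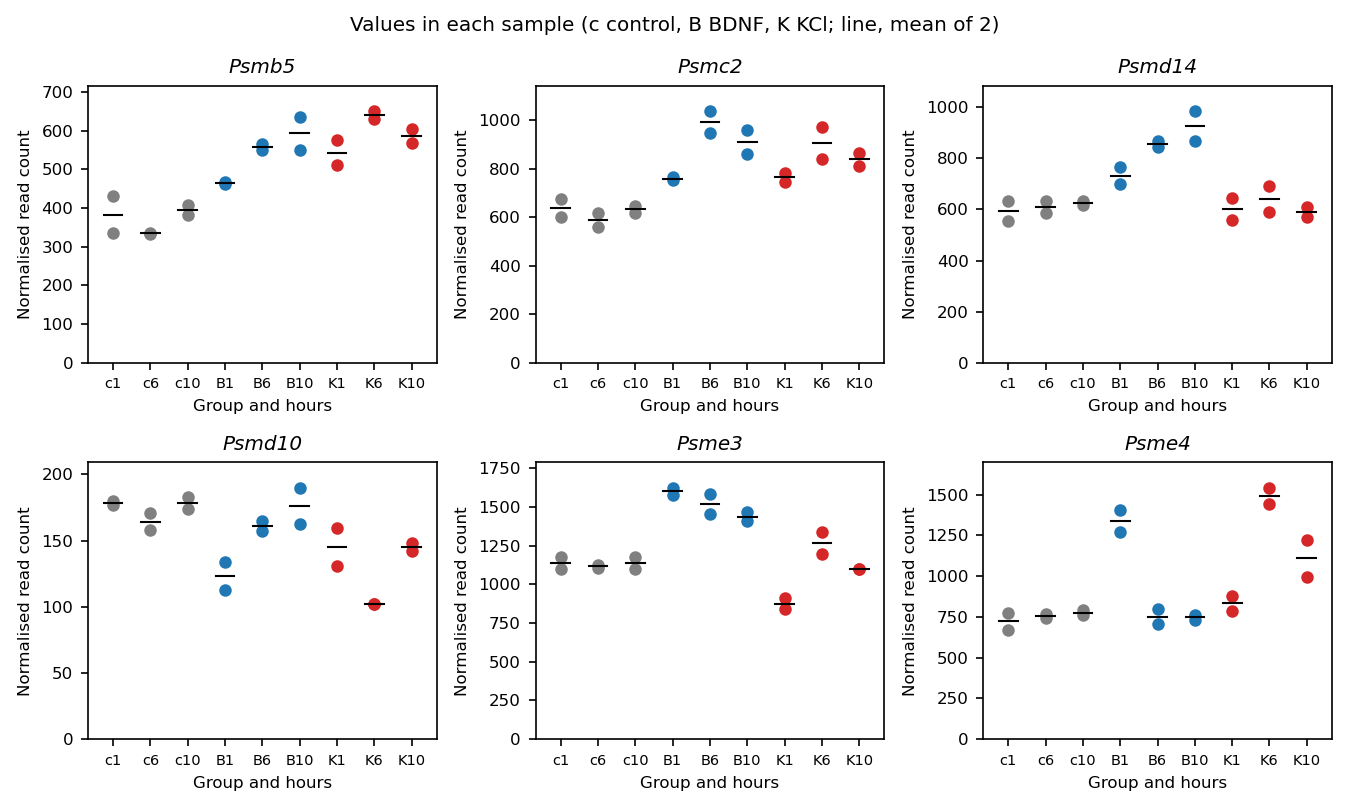
Normalised read counts in each of the 18 samples for Psmb5, Psmc2, Psmd14, Psmd10, Psme3 and Psme4 (grey controls, blue BDNF, red KCl; lines are means of 2). Psmb5 is above all controls in each stimulated library, Psmd14 in each BDNF library, and Psme4 peaks at 1 h with BDNF (1408 and 1271) and at 6 h with KCl (1440 and 1543).

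Assembly chaperones of the 19S base did not follow the subunits at 1 h: of 3, 1 was lower with BDNF and 3 were lower with KCl. Psmd10, gankyrin, which binds the ATPase Psmc4, was 158 to 183 in the controls (median 175). The gene (ENSMUSG00000031429) lies at mm10 chrX:140948429-140956728 on the minus strand. With BDNF it was 113 and 134 at 1 h, 165 and 157 at 6 h, then 163 and 190 at 10 h. With KCl it was 159 and 130 at 1 h, 102 and 102 at 6 h, then 142 and 148 at 10 h. The lowest values were those of KCl at 6 h, both below all other libraries. Differences were -0.50, -0.11 and 0.02 with BDNF (SE 0.11 each, limma adjusted p 0.0013, 0.49 and 0.91) and -0.26, -0.76 and -0.26 with KCl (adjusted p 0.052, 4.2e-06 and 0.057). BDNF minus KCl at 6 h was 0.65 (SE 0.14, adjusted p 3.6e-04), and the KCl call at 10 h was lost without either of its libraries (-0.23 and -0.29), by DESeq2 (-0.27) and against controls of the same time (-0.30).

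Psmd5, another base chaperone, was 519 to 566 in the controls (median 540), 500 and 492, 600 and 564, and 609 and 622 with BDNF, and 417 and 392, 496 and 604, and 471 and 498 with KCl. It was below all controls at 1 h of KCl (-0.42, SE 0.08, limma adjusted p 9.1e-05) and above them at 10 h of BDNF (0.19, adjusted p 0.059). Its fall at 10 h of KCl (-0.16, adjusted p 0.085) was not called without either KCl library of that time, without control 1 h library B, 6 h library B or 10 h library A (-0.15 to -0.14), by DESeq2, without the filter on low values or against controls of the same time. Psmd9 was -0.22 at 1 h of KCl and 0.61 at 6 h, both called, and 25.5% of its exon sequence lies in the annotated gene Gm26745.

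Psmb10, which replaces Psmb7 in the immunoproteasome, was 51.6 to 73.1 in the controls (median 65.8). With BDNF it was 66.9 and 66.4 at 1 h, 79.3 and 79.6 at 6 h, then 70.1 and 74.9 at 10 h, and with KCl it was 90.1 and 99.4 at 1 h, 77.7 and 61.4 at 6 h, then 74.6 and 64.3 at 10 h. The KCl libraries of 1 h were above all others, and the remaining groups except BDNF at 6 h overlapped the controls. The rise at 1 h of KCl was 0.56 (SE 0.15, limma adjusted p 0.0043), and BDNF minus KCl at 1 h was -0.50 (SE 0.19, adjusted p 0.041), a call lost without any of 3 of its 4 libraries (-0.51 to -0.43).

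Psmb9, the first gene below the mean of 10, had a mean of 9.03 over all samples: 10.2 to 14.7 in the controls, 13.7 and 6.87, 4.50 and 9.15, and 3.39 and 9.08 with BDNF, and 11.1 and 17.1, 2.95 and 8.10, and 3.67 and 2.18 with KCl. Psmb8 had a mean of 7.06 and Psmb11 of 1.81. The lowest member above the limit by this mean was Psmb10, at 71.7. Psmc3ip, a member by name only, was called once against controls, at 10 h of BDNF (0.38), and lay between -0.17 and 0.13 otherwise.

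Changes over time under 1 stimulus were tested as well. Between 1 and 6 h of BDNF 12 of 41 members rose further and 1, Psme4, fell, against 15.8% and 17.7% of all genes, and each of these libraries mattered, since the count of 13 was 4 to 6 without any 1 of the 4. Between 6 and 10 h of BDNF 0 of 41 members changed by limma, edgeR or DESeq2, against 0.216% of all genes, and 0, 1 and 0 members had an unadjusted p below 0.05. Between 1 and 6 h of KCl 12 rose and 3 fell, against 30.9% and 28.7% of all genes, with 23 called in place of 15 without KCl 6 h library A. Between 6 and 10 h of KCl 1 rose (Psmd10, 0.50) and 6 fell, against 12.9% and 9.66% of all genes. This last count of 7 was 18 without KCl 6 h library A, 2 without library B and 1 without KCl 10 h library A. Libraries A and B of KCl at 6 h differed in the beta ring, with medians of 0.36 and 0.75 above the control mean.

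Genes that act around the proteasome were taken from lists by role, and the shares of all genes called in each comparison are those given above. Of 8 further 19S subunits and partners, 3, 4 and 6 rose with BDNF and 3, 4 and 4 with KCl, and 2 fell at each time of KCl. Adrm1, the ubiquitin receptor Rpn13, had the largest rise of the wider lists at 6 h of BDNF: controls were 376 to 468 (median 429), and BDNF gave 669 and 680 (0.66, SE 0.07, limma adjusted p 3.2e-07). It was 0.44 to 0.78 above controls in the other 5 comparisons and above all controls in each. Psmf1, the inhibitor PI31, was -0.63 and -0.62 with KCl at 6 and 10 h (both called) and 0.10 and 0.15 with BDNF (not called).

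Of 5 chaperones of the 20S core, 1, 3 and 3 rose with BDNF at 1, 6 and 10 h, and 2 fell at 1 h. With KCl 3 rose and 1 fell at 1 h, 1 rose and 2 fell at 6 h, and 2 fell at 10 h. Pomp, the maturation factor of the core, was 416 to 522 in the controls (median 491), 604 and 575, 608 and 702, and 635 and 756 with BDNF, and 582 and 546, 526 and 567, and 550 and 536 with KCl. All BDNF and KCl libraries of Pomp were above the highest control, at 0.30, 0.45 and 0.53 with BDNF (all called) and 0.23, 0.19 (called) and 0.18 (not called) with KCl. The calls at 1 h were lost without library A of BDNF (0.26) and of KCl (0.19) and against controls of the same time. That at 6 h of KCl was lost by edgeR and DESeq2 (0.17 and 0.18), without the filter on low values, against controls of the same time, without KCl library B (0.13), and without library B of the controls of 1, 6 or 10 h (0.15 to 0.18). Psmg2, which builds the alpha ring together with Psmg1, was -1.08 and -0.56 with KCl at 6 and 10 h and 0.14 and 0.10 (not called) with BDNF, with BDNF minus KCl at 1.22 and 0.66, both called. Psmg3 had the largest fall of the wider lists at 1 h of KCl: 102 to 140 in the controls against 40.7 and 55.6 (-1.23, SE 0.17, limma adjusted p 2.4e-06).

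A list of 5 genes grouped here under control of proteasome gene transcription held Nfe2l1, Nfe2l2, Ddi2, Ngly1 and Akirin2. Whether Akirin2 has such a role was not tested. Of the 5, 3, 1 and 2 rose with BDNF and 1, 2 and 1 with KCl, while 1 and 2 fell at 1 and 10 h of BDNF and 1, 2 and 1 with KCl. Nfe2l1, the factor that raises proteasome genes when proteasome activity is short, was 3109 to 3440 in the controls (median 3266). With BDNF it was 3633 and 3956, 3643 and 3744, and 3687 and 3642, and with KCl 3527 and 3479, 4166 and 3281, and 4216 and 3924. BDNF differed from controls by 0.21, 0.18 and 0.16 and KCl by 0.10, 0.18 and 0.32, called in all but 1 h of KCl. Most of these calls depended on single libraries. The BDNF call was lost at 1 h without library B (0.15), at 6 h without either library (0.20 and 0.16) and at 10 h without either library (0.16 and 0.17) or without control 6 h library A, 10 h library A or 10 h library B (0.15 to 0.16). The call at 6 h of KCl was lost without library A (0.01), and against controls of the same time the call at 10 h of KCl was the one that held. Nfe2l2, a related factor of the oxidative stress response, was 253 to 475 in the controls and was called lower than controls at 10 h of BDNF and not in the other 5 comparisons (197 and 233, -0.74, limma adjusted p 0.027), a call lost without library A (-0.62) and against controls of the same time.

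Ddi2, the protease that activates Nfe2l1, was 473 to 522 in the controls, 665 and 747, 536 and 498, and 413 and 466 with BDNF, and 433 to 478 over the KCl libraries. It was above all controls at 1 h of BDNF (0.49, called) and below them at 10 h (-0.19, called) and at 6 h of KCl (-0.16, called). The call at 10 h of BDNF was lost without library A (-0.11) and against controls of the same time, and that at 6 h of KCl without KCl library B (-0.10), without control 6 h library B (-0.15), by DESeq2 (-0.15) and without the filter on low values. Ngly1, the enzyme that removes sugars from Nfe2l1, had the largest fall of the wider lists at 6 h of KCl, with 225 to 264 in the controls against 90.5 and 83.3 (-1.46, SE 0.11, limma adjusted p 1.7e-10), and the largest at 1 h of BDNF (134 and 157, -0.73, adjusted p 1.3e-05).

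Of 6 ubiquitin genes and E1 enzymes, 5, 2 and 4 rose with BDNF and 3, 6 and 5 with KCl, and Uba6 fell at 1 h of KCl. Uba6, an E1 enzyme, was 306 to 378 in the controls, 634 and 577 at 1 h of BDNF (0.86, SE 0.10, limma adjusted p 4.1e-07) and 257 and 200 at 1 h of KCl (-0.55, called). Of 9 shuttle and extraction factors, 5, 4 and 6 rose with BDNF and 7, 2 and 2 with KCl, with Sqstm1, the autophagy receptor p62, called higher in all 6 comparisons (0.20 to 0.58).

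Of 12 genes of the interferon response and of antigen presentation, which share regulation with the immunoproteasome, 1 was higher at each time of BDNF and 1, 3 and 4 lower, and 3, 3 and 1 were higher and 2, 5 and 4 lower with KCl. H2-D1, a class I antigen-presenting gene with close paralogs, rose most: 399 to 474 in the controls against 1029 and 877 at 6 h of KCl (1.14, SE 0.08, limma adjusted p 1.0e-10), then 964 and 914 at 10 h (1.12, adjusted p 2.5e-10). Tap1, the peptide transporter, fell from 155 to 209 in the controls to 102 and 126 at 6 h of BDNF (-0.65, adjusted p 0.0015). Ifit3 was 5.71 to 31.8 in the controls, then 3.39 and 6.05 at 10 h of BDNF (-1.08, limma adjusted p 0.080), groups that overlapped. This call was lost by edgeR (-1.22), without the filter on low values, against controls of the same time (-0.68), without either BDNF library (-0.73 and -1.42) and without control 1 h library B, 6 h library B or 10 h library A (-1.07 to -0.78).

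Few promoter peaks of members were called in the ATAC data, whose values were taken as raw reads although the table is described as normalised. A peak within 1000 bases before to 100 after an annotated start was found for 40 of the 41 members (41 peaks, 2 for Psmb1 and 0 for Psme2b), and 9 of these peaks also lay in the promoter window of another protein-coding gene. Their control level had a median of 126 LOESS-scaled reads. With BDNF, 1, 0 and 1 of 41 peaks were more open at 1, 6 and 10 h (edgeR adjusted p below 0.1) and 1, 0 and 0 less open, against 12.5%, 8.88% and 7.46% of all peaks more open and 4.78%, 1.75% and 1.90% less open. At 6 h, 4 member peaks had an unadjusted p below 0.05 by edgeR and DESeq2 called 2, both less open. With KCl, 1, 0 and 0 were more open and 1, 3 and 5 less open, against 5.29%, 5.44% and 5.91% more open and 3.05%, 2.06% and 1.96% less open among all peaks. The member peaks had median log2 differences of -0.05, 0.00 and -0.07 for BDNF and of -0.09, -0.07 and -0.13 for KCl, beside -0.05 to 0.01 over all peaks.

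The counts of lower peaks with KCl depended on the scaling. With TMM in place of LOESS the counts were 1 more open and 8 less open at 1 h, 0 and 9 at 6 h, then 0 and 15 at 10 h, and the median at 10 h was -0.32 beside 0.03 over all peaks. With BDNF at 1 h TMM gave 0 more open and 3 less open. RNA was higher in 20 of 41 members and lower in 2 at 10 h of KCl, where 5 promoter peaks were less open.

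Examples of called promoter peaks were few. The peak of Psmb6 (chr11:70525133-70525503), a gene whose RNA rose with KCl, was 50.4 to 79.6 in controls (median 69.2), then 30.1 and 41.8 at 10 h of KCl (-0.94, SE 0.25, edgeR adjusted p 0.011). It holds the antioxidant response element window printed above. The peak of Psme3 (chr11:101315858-101316442) was 36.2 to 67.9 in controls, then 26.1 and 24.8 at 10 h of KCl (-1.02, SE 0.29, adjusted p 0.019). The peak of Psma5 (chr3:108256729-108257393) was 199 to 217 in controls and 270 and 287 at 1 h of KCl (0.43, SE 0.11, adjusted p 0.0087), beside an RNA difference of 0.33 at that time, called. The peak of Psmc6 (chr14:45329441-45330266) was 301 to 351 in controls, then 469 and 363 at 10 h of BDNF (0.37, SE 0.11, adjusted p 0.012). Stimulated and control libraries did not overlap at any of these 4 peaks. The calls were not firm: DESeq2 called 0 member peaks more open at 1 h of KCl and at 10 h of BDNF. With 1 library left out, called peaks fell to as few as 0 in both these comparisons and at 10 h of KCl. The promoter peaks of Psmb5, Psmc2, Psmd14 and Psme4, whose RNA values are given above, were not called by edgeR in the 6 comparisons, and their smallest unadjusted p was 0.019, for a lower value of Psme4 at 10 h of KCl (-0.34).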

How the data were processed

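RNA-seq and ATAC-seq were each made on 18 samples, 2 for each of 9 groups. The authors aligned RNA reads to mm10 with TopHat2 and counted them on GENCODE genes, and the deposited RNA values are counts divided by DESeq2 size factors (a normalised signal per gene). Dividing out the smallest step recovered whole reads for 100% of values within 0.01. The tool that counted reads and its strand setting are not given in the sources used here. For ATAC-seq the authors used Trimmomatic, Bowtie2, MACS2 and DiffBind, and the deposited peak table, described as normalised, holds whole numbers with a different total in each sample. These were taken as raw read counts per peak, which could not be settled from the sources, and the edgeR results and LOESS offsets rest on it.

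RNA values were tested with limma 3.58.1 (R 4.3.3, trend and robust) on log2(value + 1), after a mean of at least 10, in 7 levels with the 6 controls as one. ATAC counts were tested with edgeR 4.0.16 by quasi-likelihood with LOESS offsets on 56383 of 58177 peaks. P-values were adjusted by Benjamini-Hochberg over all features, and an adjusted p below 0.1 was called. Embryonic tissue was pooled before plating, so p-values measure the spread between these samples, which may be technical. The authors call the 2 samples of a group biological replicates. RNA libraries held 8.51 to 36.7 M reads and ATAC libraries 1.24 to 6.24 M. Replicates differed by more than counting error, at 2.43 to 39.2 chi-square per degree of freedom for RNA and 2.04 to 2.58 for ATAC. No 2 columns were identical.

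Members and lists were chosen with earlier results of these data known. Given in full were, per comparison with controls, the 2 called members with the largest rise and fall, per direct comparison the largest difference each way, the immunoproteasome genes and activators, and the largest rise and fall of the wider lists with Nfe2l1, Nfe2l2, Ddi2 and Pomp. Some genes of the wider lists that this rule names are not reported here. Other members named as examples were picked after their values were seen. Alternatives were edgeR and DESeq2 1.42.0 on whole reads, TMM and size-factor scaling, a pseudocount of 0.1, no filter, a threshold of 0.01, controls of the same time, a narrower promoter window, a replicate block and leaving out each replicate.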

Additional observations from a re-analysis of the deposited data

Results flagged for a closer look

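Psme3 differed between stimuli at 1 h, with BDNF minus KCl at 0.87 on the log2 scale, and Psmb10 went the other way at -0.50. At 6 h the difference was 0.65 for Psmd10 and -0.99 for Psme4, and at 10 h it was 0.65 for Psmd14 and -0.56 for Psme4. Each was tested as a contrast in the same limma fit. In all, 11 of 41 members differed between the stimuli at 1 h, 17 at 6 h and 17 at 10 h, beside 42.8%, 57.3% and 45.0% of all genes. At 10 h the share of members was near that of all genes, and the count ran from 10 to 19 with 1 library left out.

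Among the 6 controls, library B of 6 h had a Psmb2 value of 393 that stood apart from the other controls, and library A of 1 h, the deepest at 36.7 M reads, had a Psme4 value of 671 below the others. At the promoter peak of Psmc5, control library B of 10 h stood apart at 51.4 scaled reads. These are 2 of 41 members and 1 of 41 peaks, where chance alone flags about 1 in 20.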

How the results depend on the processing

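With an adjusted p below 0.01, 10 members were called at 1 h of BDNF, 17 and 14 at 1 and 10 h of KCl, 5, 11 and 9 between the stimuli, 2 between 1 and 6 h of BDNF and 1 between 6 and 10 h of KCl, and 0 promoter peaks at 1 and 10 h of BDNF, 1 at 1 h and 0 at 6 and 10 h of KCl. Against controls of the same time, 13 members were called at 1 h of BDNF, and 1 peak at 1 h of BDNF, 1 at 1 h and 0 at 6 h of KCl. Called peaks with TMM were 2 and 0 at 6 and 10 h of BDNF and 9, 9 and 15 at 1, 6 and 10 h of KCl. Size factors gave 4, 2 and 2 for BDNF and 9, 10 and 18 for KCl, and DESeq2 gave 2 at 6 h of BDNF and 7, 10 and 16 with KCl. The cause was not tested.

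Leaving out 1 library, members called ranged from 11 to 27, 24 to 31 and 24 to 34 with BDNF, from 20 to 26, 20 to 29 and 16 to 23 with KCl, from 7 to 10, 13 to 21 and 10 to 19 between stimuli, from 4 to 6 and at 0 over time with BDNF, and from 13 to 23 and 1 to 18 over time with KCl. Called peaks ranged from 0 to 2, 0 to 1 and 0 to 2 with BDNF and from 0 to 2, 0 to 3 and 0 to 6 with KCl. With the replicate letter as a block, 12 in place of 13 members were called between 1 and 6 h of BDNF, and the other 12 counts did not change. Over 36 pairs of groups, the differences between libraries A and B correlated at -0.31 to 0.42, with 23 at or below 0.1. Whether the letters mark a shared batch in some groups is not known. No called result of a gene given in full changed direction under these alternatives. The split of called peaks did change: by DESeq2, 0 were more open in each of the 6 comparisons. Less open by DESeq2 were 3, 2 and 1 peaks with BDNF and 7, 10 and 16 with KCl at 1, 6 and 10 h. One read was worth 0.328 to 1.52 normalised reads across RNA libraries, and Psmb10 and Psme2 are the members with the fewest reads.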
